A study of Mus musculus with 6 samples.

Results

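The acrosome is the Golgi-derived secretory vesicle that caps the sperm nucleus, and 10 genes of its contents and assembly were followed here in purified male germ cells of the mouse. They are Acr, Acrbp, Acrv1, Spaca1, Spaca3, Zpbp, Zpbp2, Gopc, Dpy19l2 and Lyzl4, chosen by name from 19938 genes on the array. All 10 were found, each on 1 transcript cluster, and all 10 passed the filter on dim genes, which kept a gene if any of the 6 arrays reached log2 6. RNA had been hybridised to Affymetrix Mouse Gene 1.0 ST arrays, which give 1 intensity per cluster. The groups were round spermatids of Rnf8 knockout (KO) males (1 array), round spermatids of wild-type (WT) males (1 array), pachytene spermatocytes of KO males (2 arrays) and pachytene spermatocytes of WT males (2 arrays), all on a C57BL/6 background. The study's design text says that each cell type was enriched from 3 to 4 males by gravity sedimentation, to more than 95% by nuclear staining. The sources used here do not give the age of the males or how the knockout allele was made. Whether the arrays of 1 group stem from separate preparations is not stated, so the p-values cover the spread among these arrays alone, which may be technical.

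Pachytene spermatocytes are cells in the prophase of meiosis, and round spermatids are the haploid cells that follow. Proacrosomal vesicles form at the Golgi of late spermatocytes and fuse into a single acrosome on the nucleus of the round spermatid. Proteins with a role in sperm binding and zona penetration are stored in it until exocytosis. Rnf8 encodes a ubiquitin ligase that marks histones around DNA breaks and, in meiosis, on the X and Y chromosomes. Its only cluster, which also lists the readthrough gene Gm28043, lay at log2 7.50 on the KO and 7.78 on the WT round spermatid array, and at 7.86 and 8.05 on the KO and 8.51 and 8.86 on the WT pachytene arrays. Most pachytene and spermatid markers followed the labelled cell types. In round spermatids 9 of 12 pachytene markers were lower and 1 higher by limma at adjusted p 0.05. Of 14 spermatid markers 10 were higher and 0 lower, with Prm1 and Prm2, at log2 differences of 0.22 and 0.23, among those not called. Of all tested genes 17.1% were lower and 17.8% higher. The summed intensity of the 14 spermatid markers was 80911 on the KO and 84131 on the WT round spermatid array, and 51106 to 64115 on the pachytene arrays, so spermatid transcripts were also measured in the pachytene fractions.

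The 10 acrosome genes fell into 3 kinds of pattern between the cell types. Lyzl4, Spaca3 and Spaca1 exceeded their pachytene level by 2.47- to 3.21-fold in round spermatids, and Acrv1 was 1.53-fold higher. Gopc was 3.07-fold lower. The other 5, Acr, Acrbp, Zpbp, Zpbp2 and Dpy19l2, did not pass the test, with differences between 0.03 and 0.19 on the log2 scale. None of the 10 passed for KO against WT in pachytene spermatocytes or over both cell types, where 0% of all tested genes did. None differed by 2-fold between the single KO and WT arrays of round spermatids, where 0.385% of all tested genes did.

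Upstream sequence was compared among members that rose, that fell and that did not pass, because the first of these rose together. The windows shown are the 250 bases before the most upstream annotated start, from RefSeq on GRCm38.p6, written 5′ to 3′ on the strand of the gene. The counts further below use the window of every annotated start. Capitals mark TGACG, the half-site of the cyclic AMP response element, and GTGTGT, on either strand. CREM, the cyclic AMP response modulator of spermatids, binds that element, and TDP-43 is known to bind GTGTGT repeats in the mouse Acrv1 promoter. The genes shown are 3 that rose (Spaca1, Spaca3 and Acrv1), 1 that did not pass (Zpbp2) and 1 that fell (Gopc).
Spaca1 (chr4:34050068-34050317, minus strand): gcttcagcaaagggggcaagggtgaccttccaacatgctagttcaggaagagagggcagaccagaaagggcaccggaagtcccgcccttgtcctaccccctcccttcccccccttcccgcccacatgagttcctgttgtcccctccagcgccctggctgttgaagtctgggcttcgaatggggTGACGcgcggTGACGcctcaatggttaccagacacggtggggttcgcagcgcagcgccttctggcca
Spaca3 (chr11:80858113-80858362, plus strand): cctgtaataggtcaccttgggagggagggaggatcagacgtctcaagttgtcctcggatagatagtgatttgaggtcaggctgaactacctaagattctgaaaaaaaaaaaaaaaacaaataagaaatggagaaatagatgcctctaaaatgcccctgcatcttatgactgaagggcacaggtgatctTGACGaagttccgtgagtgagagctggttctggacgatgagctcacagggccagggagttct
Acrv1 (chr9:36692970-36693219, plus strand): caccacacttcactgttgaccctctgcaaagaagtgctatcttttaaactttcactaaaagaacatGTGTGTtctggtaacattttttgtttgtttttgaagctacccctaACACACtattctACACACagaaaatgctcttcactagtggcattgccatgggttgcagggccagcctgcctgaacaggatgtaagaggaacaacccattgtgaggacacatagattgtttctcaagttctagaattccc
Zpbp2 (chr11:98550847-98551096, plus strand): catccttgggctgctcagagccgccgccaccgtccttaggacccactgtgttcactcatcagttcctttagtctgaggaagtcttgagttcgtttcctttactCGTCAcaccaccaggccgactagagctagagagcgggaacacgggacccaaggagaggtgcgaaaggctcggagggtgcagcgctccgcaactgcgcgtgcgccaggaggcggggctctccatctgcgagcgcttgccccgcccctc
Gopc (chr10:52382125-52382374, minus strand): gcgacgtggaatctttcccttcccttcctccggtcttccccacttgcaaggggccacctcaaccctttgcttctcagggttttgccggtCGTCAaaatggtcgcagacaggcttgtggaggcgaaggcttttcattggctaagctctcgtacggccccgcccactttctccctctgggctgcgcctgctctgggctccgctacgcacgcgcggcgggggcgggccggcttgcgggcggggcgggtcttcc

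Windows were found for 9 of the 10 genes, Acr being the exception, and Lyzl4, Spaca1 and Spaca3 had more than 1 start. TGACG occurred on either strand in a window of 6 of these 9 genes (Acrbp, Spaca1, Spaca3, Zpbp2, Gopc and Lyzl4), against 19.8% of 27025 genes in the table. These 6 include genes that rose, the gene that fell and genes that did not pass. Spaca1 held 2 matches, 67 and 57 bases before its most upstream start. In Lyzl4 the match lay before 1 of its 3 starts, the most downstream, and the window of its most upstream start held none. The full palindrome TGACGTCA was in none of the 9 genes and in 1.77% of all genes. GTGTGT was found only in Acrv1 among the 9, at 3 places 184, 139 and 127 bases before the start, against 16.8% of all genes. TATAAA was in none of the 9 genes and in 14.3% of all. CCAAT was in Zpbp and Gopc, against 37.5% of all genes. TGACG lies within TGACGTCA, and no other pair of these motifs contains the other. The share of G and C ran from 42.0% in the Acrv1 window to 66.8% in 1 Lyzl4 window, with a median of 52.4% over all windows.

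Among the lysozyme-like members, Lyzl4 and Spaca3 both rose. They encode relatives of lysozyme that lie in the acrosome, Spaca3 being the sperm lysozyme-like protein of the acrosomal matrix. Lyzl4 had a log2 intensity of 10.31 on the KO and 10.25 on the WT round spermatid array, against 8.85 and 8.48 on the KO and 8.55 and 8.51 on the WT pachytene arrays. Both spermatid arrays lay above all 4 pachytene arrays. The difference was 1.68 on the log2 scale (SE 0.13, 2 against 4 arrays, 95% interval 1.39 to 1.98), at an adjusted p of 0.000156 in limma. Spaca3 lay at 10.82 in KO and 10.81 in WT round spermatids, and at 9.51 and 9.37 in KO and 9.45 and 8.98 in WT pachytene spermatocytes. The groups again did not overlap, and the lowest array was WT pachytene array 2. Its difference was 1.48 (SE 0.15, interval 1.13 to 1.84, limma adjusted p = 0.000323).

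Transcripts of Spaca1 and Acrv1 rose as well. Spaca1 encodes a protein of the acrosomal membrane that is needed for a normally shaped acrosome in the mouse. Its log2 intensity was 12.28 in both KO and WT round spermatids, against 11.24 and 10.73 in KO and 10.85 and 11.07 in WT pachytene spermatocytes. It differed by 1.31 (SE 0.16, interval 0.94 to 1.67, limma adjusted p = 0.000575). The 2 KO pachytene arrays lay on either side of both WT arrays. Acrv1 encodes SP-10, a protein of the acrosomal vesicle, and lay at 12.92 in KO and 12.98 in WT round spermatids, against 12.44 and 12.22 in KO and 12.34 on both arrays of WT pachytene spermatocytes. The difference was 0.62 (SE 0.11, interval 0.36 to 0.88, limma adjusted p = 0.00338), and the groups did not overlap. Its call needs both spermatid arrays: it was lost without the KO spermatid array, at a difference of 0.64, and without the WT one, at 0.59. Without the KO spermatid array the fit gives the comparison within WT, and without the WT one that within KO. The results within each genotype below are therefore not a separate check.

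Gopc moved the other way. It encodes a Golgi-associated PDZ and coiled-coil protein that is expressed in many tissues and directs vesicles, and mice without it have round-headed sperm that lack an acrosome. It lay at 8.30 in KO and 8.38 in WT round spermatids, against 10.02 and 9.98 in KO and 9.96 and 9.87 in WT pachytene spermatocytes. Both spermatid arrays were below all pachytene arrays, and the spread within each pachytene pair was under 0.10. The log2 difference was -1.62 (SE 0.11, interval -1.87 to -1.37, limma adjusted p = 0.000122). Summed intensity of markers of 2 somatic cell types moved with it, and so did that of the 12 pachytene markers. The pachytene markers summed to 27989 on the KO and 27610 on the WT spermatid array and to 43773 to 49903 on the pachytene arrays. Macrophage and blood markers, and peritubular and vessel markers, summed higher on both spermatid arrays. By limma 2 of the 6 measured macrophage and blood markers rose, and 1 of the 7 peritubular and vessel markers. Of all tested genes 17.8% rose. The 1 vessel list gene was Dcn, at a log2 difference of 2.86, and 4 of these 7 markers had a difference below 0. The 6 measured Leydig markers summed to 1277 on the KO and 1044 on the WT spermatid array and to 4689 to 6905 on the pachytene arrays. The 11 measured Sertoli markers summed to 5901 and 4725 on the KO and WT spermatid arrays and to 8653 to 10504 on the pachytene arrays. By limma all 6 Leydig and 8 of the 11 Sertoli markers fell, where 17.1% of all tested genes did. Their part in the difference of Gopc was not tested. In such bulk samples fewer cells of a type and less RNA per cell cannot be told apart.

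**Figure D1:**
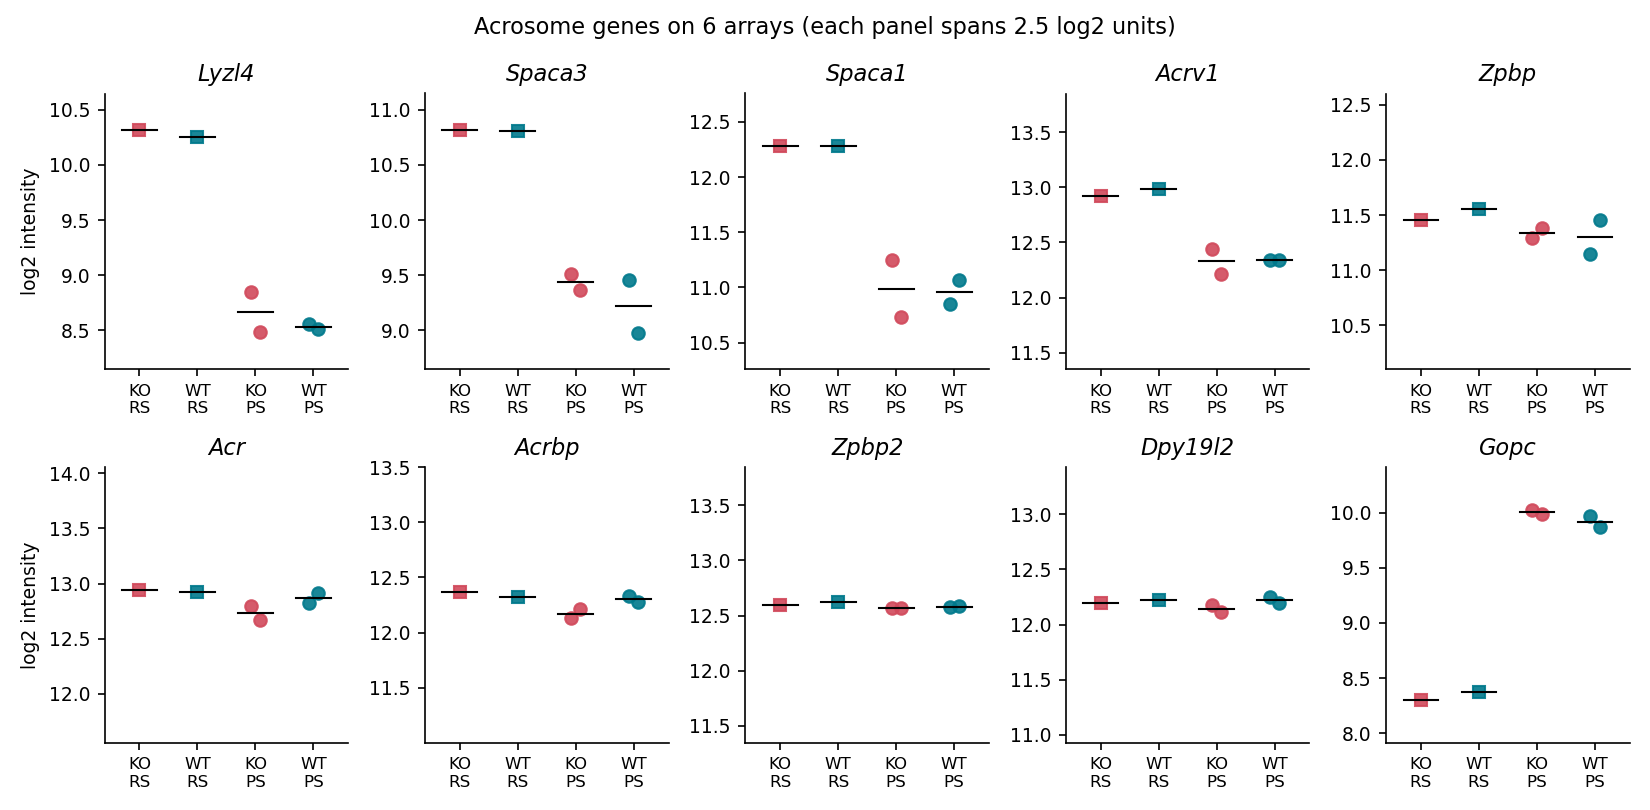
Log2 intensity (y axis) of each of the 10 acrosome genes on the arrays of 4 groups (x axis: KO and WT round spermatids, RS, as squares, and KO and WT pachytene spermatocytes, PS, as circles). Red points are KO arrays, blue points are WT arrays, and black lines are group means. Lyzl4 lies at 10.31 and 10.25 in spermatids, above all pachytene arrays, Gopc at 8.30 and 8.38, below all of them, and the Zpbp2 arrays span 0.06.

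The remaining 5 genes did not pass the test, with the smallest adjusted p at 0.313 for Zpbp. Zpbp2, which like Zpbp encodes a zona pellucida-binding protein of the acrosomal matrix, had a log2 intensity of 12.60 in KO and 12.63 in WT round spermatids, against 12.57 on both KO and 12.57 and 12.59 on the WT pachytene arrays. Its 6 arrays spanned 0.06 in all, and the difference was 0.04 (SE 0.10, interval -0.19 to 0.27). The spermatid arrays lay just above the pachytene arrays. Dpy19l2, which encodes an inner nuclear membrane protein that holds the acrosome to the nucleus, lay at 12.19 in KO and 12.22 in WT round spermatids. Its pachytene arrays were at 12.18 and 12.11 in KO and 12.25 and 12.19 in WT. These groups overlapped, and the difference was 0.03 (interval -0.21 to 0.26).

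Acr and Acrbp encode the protease acrosin and the protein that binds its precursor. Acr lay at 12.94 in KO and 12.92 in WT round spermatids, and at 12.80 and 12.67 in KO and 12.82 and 12.92 in WT pachytene spermatocytes. Acrbp was at 12.37 and 12.33 in KO and WT round spermatids, and at 12.13 and 12.21 in KO and 12.33 and 12.28 in WT pachytene spermatocytes. Their differences were 0.13 (interval -0.12 to 0.39) and 0.11 (interval -0.14 to 0.35). Zpbp was at 11.45 in KO and 11.56 in WT round spermatids, against 11.29 and 11.38 in KO and 11.15 and 11.45 in WT pachytene spermatocytes, a difference of 0.19 (interval -0.10 to 0.47). The upper bound for Zpbp, a 1.39-fold rise, was the highest of the 5. The highest intensity of any cluster lay between 13.65 and 13.77 on the 6 arrays. Whether bright clusters understate a rise was not tested. All 5 were measured well above the dim filter on the pachytene arrays, at log2 11.15 or more. The spermatid markers Prm1 and Prm2 were bright there too, at 12.85 to 13.44. They did not pass either (limma adjusted p = 0.246 and 0.152), while 10 of the 14 spermatid markers did. From which cells a bright value on a pachytene array stems was not tested. The part of spermatid transcripts in the values of the 5 genes was not tested.

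By the test over both genotypes, 4 of the 10 genes rose and 1 fell, where 17.8% and 17.1% of 17925 tested genes did. In either direction 5 of the 10 passed, and 34.9% of all tested genes. The arrays of the 2 cell types did not overlap for 7 of the 10, 6 with spermatids above and 1 below, against 50.5% of all genes (24.1% above and 26.4% below). Besides the 5 genes that passed, these are Acr and Zpbp2. The median difference of the 10 genes was 0.16, and that of all tested genes -0.06.

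**Figure D2:**
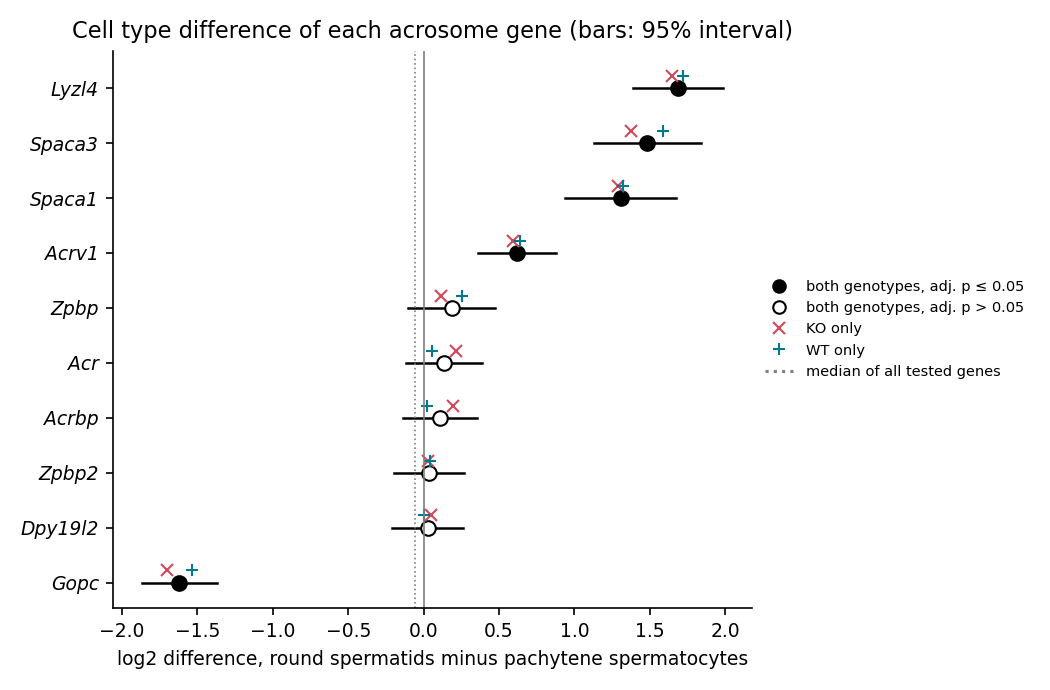
Difference in log2 intensity between round spermatids and pachytene spermatocytes (x axis) for each acrosome gene (y axis), over both genotypes (circles, filled where limma's adjusted p is at most 0.05, with 95% intervals) and within KO (crosses) and WT (plus signs). The 4 filled points on the right run from 0.62 to 1.68, Gopc lies at -1.62, and the 5 open points lie between 0.03 and 0.19.

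The same comparison was made within each genotype, where each lone spermatid array is assumed to vary like the pachytene pairs. Lyzl4, Spaca3, Spaca1 and Gopc passed in KO and also in WT (limma), where 15.5% of genes passed in KO (8.36% higher and 7.18% lower) and 20.0% in WT (11.5% higher and 8.45% lower). Lyzl4 differed by 1.65 in KO and 1.72 in WT, Spaca3 by 1.37 and 1.59, Spaca1 by 1.29 and 1.32, and Gopc by -1.70 and -1.54 (highest limma adjusted p 0.0176, for Spaca1 in KO). Acrv1, at 0.59 in KO and 0.64 in WT, passed in neither (limma adjusted p = 0.0809 and 0.0544). Spaca1 no longer passed in WT without WT pachytene array 1 (limma adjusted p = 0.0589, difference 1.21). The interaction of genotype and cell type, which tests whether these differences are unequal, passed for none of the 10 genes and for 0% of all tested genes (limma, 0 of the 10 and 130 of all genes at an unadjusted p under 0.05). Its values for the 10 lay between -0.22 for Spaca3 and 0.18 for Acrbp. Their 95% intervals reached from -1.01 to 0.80, so the bound farthest from 0, that of Spaca3, is a 2.01-fold interaction.

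Each of the 10 genes differed by at most 0.15 on the log2 scale between KO and WT over both cell types. None passed in limma (0% of all tested genes did), and none had an unadjusted p under 0.05, against 979 of 17925 genes. The largest differences, KO minus WT, were 0.15 for Spaca3 (SE 0.14, 3 against 3 arrays, adjusted p = 0.892), 0.11 for Lyzl4 (SE 0.12) and -0.08 for Acr (SE 0.10). The 95% intervals of all 10 lay between -0.33 and 0.49, so a change above 1.40-fold lies outside each of them. This fit takes the genotype difference to be the same in both cell types, and the intervals within pachytene spermatocytes are wider. The median difference was -0.01 for the 10 genes and 0.04 for all tested genes. KO lay below WT for 6 of the 10 and for 6775 of 17925 tested genes.

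In pachytene spermatocytes alone, with 2 KO and 2 WT arrays, 0 of the 10 and 0% of all genes passed in limma (0 of the 10 and 430 of all genes at an unadjusted p under 0.05). Differences ran from -0.14 for Acr to 0.23 for Spaca3. The 95% intervals of the 10 genes reached from -0.49 to 0.68, so the bound farthest from 0 is a 1.60-fold change. KO and WT arrays did not overlap for 5 of the 10, with Acr, Acrbp, Zpbp2 and Dpy19l2 lower and Gopc higher in KO. The same was true of 25.0% of all genes, 10.2% lower and 14.9% higher. For Acrbp the KO mean was 12.17 ± 0.05 and the WT mean 12.31 ± 0.04 (SD, n = 2 each), and for Acr they were 12.73 ± 0.09 and 12.87 ± 0.07. Within the KO pair, Spaca1 was 0.51, Lyzl4 0.37, Acrv1 0.22 and Spaca3 0.14 higher on array 1 than on array 2. These are the 4 genes that rose in spermatids, but 7 of the 10 were higher on KO array 1. Over all tested genes the median absolute difference was 0.23 in the KO pair and 0.10 in the WT pair. Acrv1 and Spaca3 lay below that median in the KO pair. The summed spermatid markers were also higher on KO array 1, at 64115 against 52161 on array 2. The shift was not limited to them: pachytene markers summed to 49903 against 43773, and Leydig markers to 4689 against 6706. In the WT pair the same 4 genes differed by -0.22, 0.04, 0.00 and 0.47. There the spermatid markers summed to 55025 on array 1 and 51106 on array 2. The part of spermatid transcripts in these values was not tested.

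Round spermatids had 1 KO and 1 WT array, so there is no replicate check and no test. No acrosome gene differed by 2-fold between them, as 0.385% of all genes did. The largest difference, KO minus WT, was -0.10 for Zpbp, then -0.07 for Gopc, -0.06 for Acrv1 and 0.06 for Lyzl4. Acr and Spaca3 differed by 0.02 and 0.01, and Spaca1 by less than 0.01. The KO array was below the WT array for 6 of the 10 genes and for 40.9% of all genes.

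**Figure D3:**
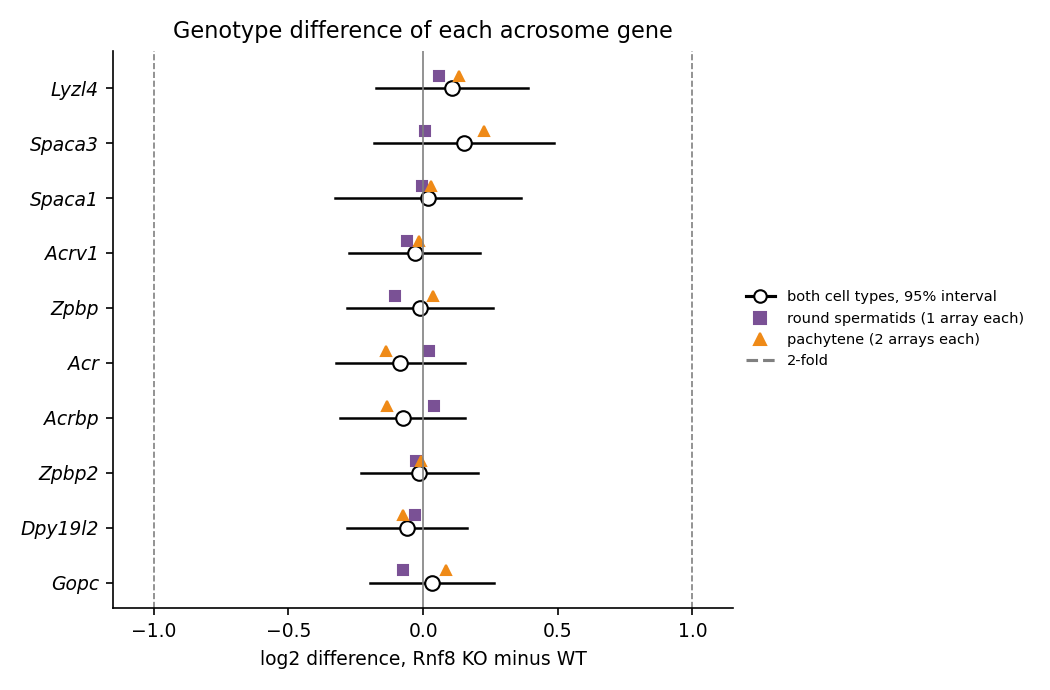
Difference in log2 intensity between Rnf8 KO and WT (x axis) for each acrosome gene (y axis): over both cell types with its 95% interval (open circles), in round spermatids with 1 array each (squares) and in pachytene spermatocytes with 2 arrays each (triangles). Dashed lines mark 2-fold, and all intervals lie between -0.33 and 0.49.

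Other acrosome genes were followed as 4 lists. Of 25 genes for acrosomal contents and membranes, 17 rose and 1 fell in round spermatids (limma), where 17.8% of all tested genes rose and 17.1% fell. Their median difference was 1.05, and that of all tested genes -0.06. The largest were 2.17 for the lysozyme-like Spaca5 (SE 0.20), 1.88 for Lyzl1 (SE 0.23), 1.73 for Tmem190 (SE 0.14), a membrane protein of the inner acrosome, and 1.67 for the complement regulator Cd46 (SE 0.26). Spaca5 lay at 10.27 in KO and 10.11 in WT round spermatids, against 8.59 and 8.03 in KO and 7.97 and 7.50 in WT pachytene spermatocytes. The 1 gene that fell, named after its value was seen, was the serine protease gene Tmprss12 at -0.87 (SE 0.14).

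Genes for acrosome biogenesis, the role also held by Gopc and Dpy19l2, had a median difference of 0.02. Of 31 tested, 6 rose and 3 fell (limma), where 17.8% of all tested genes rose and 17.1% fell, so the share that rose is near that of all genes. The profilin gene Pfn3 differed by 1.70 (SE 0.13), the actin-like gene Actl7a by 1.28 (SE 0.14), Fam209 by 1.17 (SE 0.12) and Vps54, which encodes a subunit of a complex that tethers vesicles at the Golgi, by -0.94 (SE 0.17). Pfn3 lay at 10.23 in KO and 10.48 in WT round spermatids, and between 8.49 and 8.82 on the pachytene arrays. The other 2 that fell, named after their values were seen, were the Golgi microtubule-associated Trip11 at -0.63 and Rab27a, a GTPase of secretory vesicles, at -0.44. The count is sensitive to the spermatid arrays and WT pachytene array 2: leaving out the KO spermatid array gave 3 calls, leaving out the WT one gave 4, and leaving out that pachytene array gave 5.

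Of 17 tested genes for acrosomal exocytosis, 4 rose and 0 fell (limma), where 17.8% of all tested genes rose and 17.1% fell, and the median was 0.04. With 17 genes, the 4 that rose are not far from the share of all genes. They were Plcz1 at 1.37 (SE 0.22), the sperm phospholipase that starts calcium oscillations in the egg, Nsf at 0.63 (SE 0.14), the ATPase that recycles membrane fusion complexes, the phospholipase gene Plcd4 at 0.42 and the syntaxin gene Stx2 at 0.34. The count was 1 without either spermatid array, 2 without WT pachytene array 2 and 7 without KO pachytene array 1. Of 8 relatives of the lysozyme-like and Dpy19-like members, 5 rose and 0 fell (limma), beside the same 17.8% and 17.1% of all tested genes, with a median of 0.55. Lyzl6 differed by 1.45 (SE 0.12) and Lyz2, the lysozyme of macrophages, by 0.59 (SE 0.12), beside Spaca5 and Lyzl1, which are also in the list of contents, as is Lyzl6. That count was 3 without the WT spermatid array. The summed intensity of 6 macrophage and blood markers, Lyz2 among them, was 882 in KO and 915 in WT round spermatids, and 674 to 726 in pachytene spermatocytes. Of these 6 markers only Lyz2 itself and Adgre1 passed (limma), both higher in spermatids, so the sum is not separate from Lyz2. The part of macrophages in the value of Lyz2 was not tested.

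**Figure D4:**
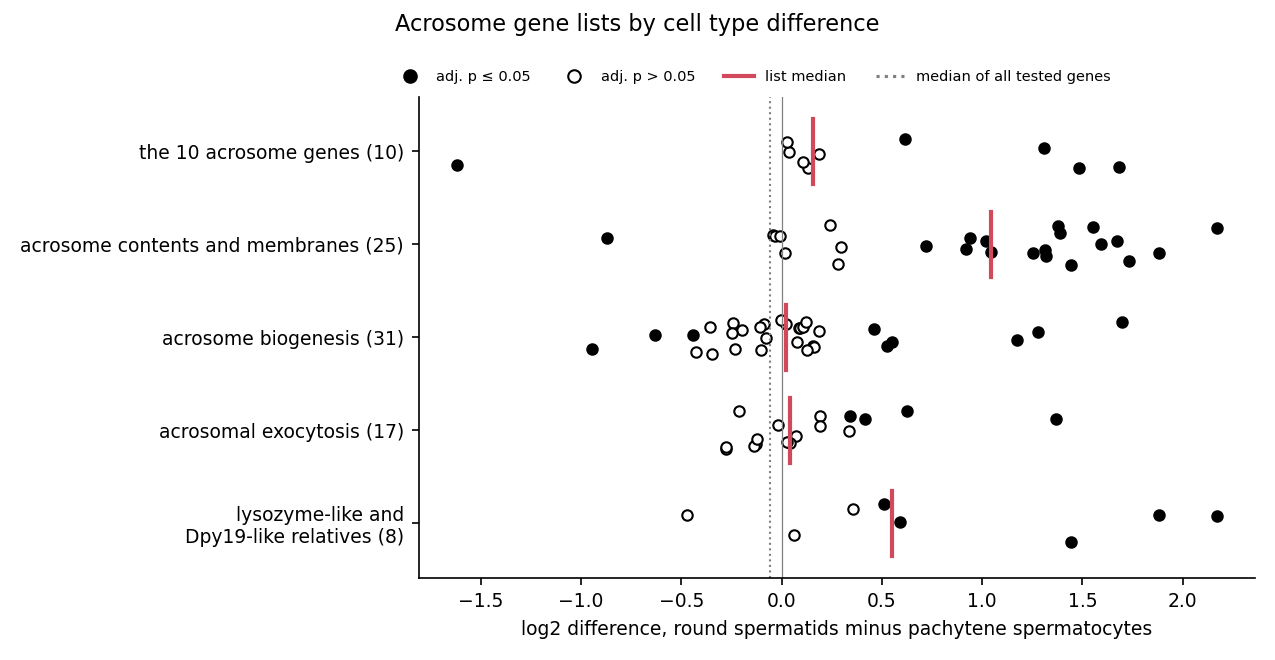
Difference in log2 intensity between round spermatids and pachytene spermatocytes (x axis) for the 10 acrosome genes and for the tested genes of 4 lists (y axis, number of genes in parentheses), with points filled where limma's adjusted p is at most 0.05. Red lines are list medians, at 0.16 for the 10 genes, 1.05 for contents and membranes, 0.02 for biogenesis, 0.04 for exocytosis and 0.55 for the relatives, and the dotted line is the median of all tested genes, -0.06.

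No gene of these 4 lists passed for KO against WT in pachytene spermatocytes or over both cell types (limma), where 0% of all tested genes did. Over both cell types, 3 of the 25 contents and membrane genes had an unadjusted limma p under 0.05. In the other 3 lists 0 genes did, and 979 of all 17925 tested genes did. On the lone round spermatid arrays, 21 of 25 contents and membrane genes and 22 of 31 biogenesis genes lay below WT. So did 40.9% of all tested genes. The medians of these 2 lists were -0.06 and -0.02, against 0.05 for all tested genes. Spermatid and elongating spermatid markers lay below WT for 11 of 14 and 6 of 6 genes. Sertoli and spermatogonial markers lay above WT for 11 of 11 and 9 of 10, as did 10601 of 17925 tested genes. With 1 array each, their part in these differences was not tested.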

How the data were processed

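The authors deposited intensity values on a linear scale, obtained by RMA in Affymetrix Expression Console 1.1, as the submitters' processing notes list. The sources used here do not give the options. Log2 of the deposited intensity was taken with no pseudocount. The platform annotation gave 1 symbol to 21789 of 35556 clusters, several to 1621 and none to 12146. Of the single-symbol clusters, 21698 matched RefSeq (GRCm38.p6), and the cluster of highest mean stood for a gene. Groups came from the sample titles. The 17925 genes that reached log2 6 on any array were fitted with limma 3.58.1 in R 4.3.3 (lmFit, eBayes), with Benjamini-Hochberg adjustment over all of them and a threshold of 0.05. The fit with additive terms for genotype and cell type has 3 residual degrees of freedom, and a fit of 4 groups has 2, all from pachytene arrays. The fits were tested on simulated data. Array number limits the precision.

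The members and gene lists were chosen with earlier results of these data known. Named were all 10 members, the 4 largest called cell type differences per acrosome list, and for each member the gene with the nearest pattern. Listed genes not measured by a single-symbol cluster were not tested, among them Kifc1 of the biogenesis list and Vamp2, Trpc2, Itpr1 and Rapgef4 of the exocytosis list. Alternatives were another normalization, centring, filters, a pseudocount of 16, another prior, the mean over clusters, the replicate number as a block, and each array left out. Marker lists of spermatogonia and of peritubular and vessel cells passed 1 of 10 and 1 of 7 genes between the cell types, all higher in spermatids. Elongating spermatid markers passed 4 of 6, all higher, and macrophage and blood markers 2 of 6, all higher. Of all tested genes 17.8% were higher in spermatids.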

Additional observations from a re-analysis of the deposited data

Results flagged for a closer look

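For Acr, Acrbp and Gopc the KO and WT pachytene arrays did not overlap, and the lone spermatid arrays lay in the opposite order. The share of all genes with such an order was not counted, so it cannot be called a trait of these 3. KO and WT pachytene arrays did not overlap for 25.0% of all tested genes. Acr was lower on both KO than on both WT pachytene arrays (KO minus WT -0.14) and 0.02 higher on the KO round spermatid array, with an interaction of 0.16 (SE 0.26). For Acrbp the differences were -0.13 and 0.04, with an interaction of 0.18 (SE 0.25). Gopc was 0.09 higher in KO pachytene spermatocytes and differed by -0.07 in round spermatids, with an interaction of -0.16 (SE 0.25). The interaction passed for none of the 3 (limma adjusted p = 1.00 for each), and it rests on 1 array per genotype in round spermatids.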

How the results depend on the processing

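Under 15 alternatives, the 4 rises and 1 fall of acrosome genes between the cell types kept their direction. Over both genotypes, Lyzl4 lay between 1.60 and 1.79, Spaca3 between 1.36 and 1.64, Spaca1 between 1.12 and 1.42 and Gopc between -1.70 and -1.54, and each passed under all 15. Acrv1 lay between 0.56 and 0.67 and passed under 13, failing without either spermatid array. Those failures repeat its results within WT and within KO. When an array was left out, 4 to 5 of the 10 genes passed over both genotypes, 4 to 5 in KO and 3 to 5 in WT. For the comparisons of genotype and the interaction, 0 of the 10 passed under any alternative. Of 900 repeated values of the 10 genes, 888 kept their call or, if untested, moved by less than the pachytene replicate spread. None with a call changed sign, and 41 tested values without a call did. The 12 values not among the 888 were these. Acrv1 lost its call over both genotypes without either spermatid array, and Spaca1 lost it in WT without WT pachytene array 1 (1.21, limma adjusted p = 0.0589). The untested KO minus WT spermatid value of Zpbp2 was -0.02 after a second quantile normalization and -0.04 after centring. Acrv1 within a genotype gained its call under 2 settings in KO and 5 in WT, as under the trended and robust prior (0.59 in KO, limma adjusted p = 0.0137, and 0.64 in WT, limma adjusted p = 0.00747). With an array left out, the calls were 14 to 19 for contents and membranes, 3 to 13 for biogenesis, 1 to 7 for exocytosis and 3 to 6 for the relatives. Without an array fewer samples enter the fit. Over all genes, calls between the cell types ran from 2786 to 8849 over both genotypes with an array left out (6255 in all), 1646 to 3883 in KO (2786 in all) and 1404 to 5511 in WT (3577 in all). KO against WT passed 2 genes at most in pachytene spermatocytes and 21 at most over both cell types with an array left out, where 0 passed in the fits reported. With all 6 arrays, over both cell types, a pseudocount of 16 passed 1 gene and the trended and robust prior 2.

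The replicate number as a block passed the same 5 acrosome genes over both genotypes (5375 genes in all), 4 in KO, 4 in WT and 0 for genotype, where it passed 43 of all genes in pachytene spermatocytes, 2 over both cell types and 1 for the interaction. It changed no call of the 10 genes. Deviations of same-numbered arrays correlated at -0.23, so the numbers gave no sign of pairing. With the numbers crossed, chosen after that value was seen, 5 acrosome genes passed over both genotypes, 0 for genotype, and of all genes 88 for genotype in pachytene spermatocytes, 28 over both cell types and 9 for the interaction.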

Other observations

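For each acrosome gene, the other named gene with the nearest pattern was found among 16338, by the Euclidean distance between log2 values centred on each gene's mean over the 6 arrays. The arrays fall mainly into 2 cell types, so this is a description. The testis kinase gene Tssk3 was nearest to Spaca1 (distance 0.05) and rose by 1.30. Znrf4 was nearest to Spaca3 (distance 0.10, difference 1.50), Cytl1 to Lyzl4 (0.14, difference 1.60) and Chn1 to Acrv1 (0.06, difference 0.63). Rsrp1 was nearest to Gopc (distance 0.13, difference -1.64). For the genes that did not pass between the cell types, the nearest were Taf3 for Acr, Adpgk for Acrbp, Icosl for Zpbp, S100a3 for Zpbp2 and Pabpc2 for Dpy19l2. Among the 10 themselves, Lyzl4 and Spaca3 were nearest to each other (distance 0.43), and so were Zpbp2 and Dpy19l2 (distance 0.10). The closest of the 10 to Gopc was 1.91 away.

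Of the 10 acrosome genes, 3 lie on chromosome 9 (Acrv1, Dpy19l2 and Lyzl4) and 3 on chromosome 11 (Spaca3, Zpbp and Zpbp2). Neither chromosome kept to 1 pattern between the cell types: Zpbp2 and Dpy19l2 did not pass, while Spaca3 and Lyzl4 rose.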
